A study of Arabidopsis thaliana with 32 samples.

Results

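The 6 tandem genes of glycosyl hydrolase family 18 (GH18) on chromosome 4 of Arabidopsis thaliana described here were AT4G19720, AT4G19750, AT4G19760, AT4G19770, AT4G19800 and AT4G19810. They were taken by gene identifier from the 4 tables of genes that responded to zaxinone in roots. The members were chosen by their change under zaxinone in those tables, so that change is given as a description and carries no test. They are 6 of the 3443 genes listed in at least 1 table. The 3 neighbours of the same family, AT4G19730, AT4G19740 and AT4G19820, are not members and are given for comparison.

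The study sampled roots of 5-week-old plants grown in hydroponics, 6 h after zaxinone or acetone alone was put into the medium. Zaxinone belongs to the apocarotenoids, small molecules cut from carotenoids. The zaxinone plants had 20 µM of it in 1% acetone and the mock plants had 1% acetone, so acetone was common to all plants. The 4 genotypes were the mutants d14, kai2 and max2 and the wild type Col-0, with 4 zaxinone and 4 mock libraries each, 32 libraries in all. D14 is the strigolactone receptor, KAI2 a paralog needed for karrikin responses, and both signal through MAX2, an F-box protein. The labels name the mutated gene and not the allele. They also do not say whether the 4 replicates of a group came from separate plants or cultures, and p-values then reflect only the spread among these libraries, which may be technical.

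GH18 chitinases cleave chitin, the polymer of N-acetylglucosamine found in fungal cell walls and insect exoskeletons and not made by plants. Plants carry several unrelated or distantly related chitinase classes, and the class V enzymes belong to GH18. Chitin fragments released by such enzymes are perceived by plant receptor kinases with LysM domains and start defence responses. AT4G19810 encodes ChiC, the class V chitinase of this species that has been studied as an enzyme, and the other members are annotated in RefSeq only as glycosyl hydrolase family proteins with a chitinase insertion domain. Roles beyond this family assignment are not given for them here.

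The members lay within 35.83 kb, at chr4:10729966-10765795 in the RefSeq annotation of TAIR10.1, together with AT4G19730, AT4G19740 and 2 pseudogenes. AT4G19760 is on the plus strand and the other 5 members are on the minus strand. Their coding sequences were 1092 bases long in AT4G19720, 1089 in AT4G19750, 1110 in AT4G19760, 786 in AT4G19770, 1197 in AT4G19800 and 1140 in AT4G19810. AT4G19770 thus had the shortest reading frame, of 261 codons, and AT4G19800 the longest, of 398. No annotated gene of the family overlapped its neighbour, and the closest members, AT4G19800 and AT4G19810, were 1101 bases apart.

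**Figure D1:**
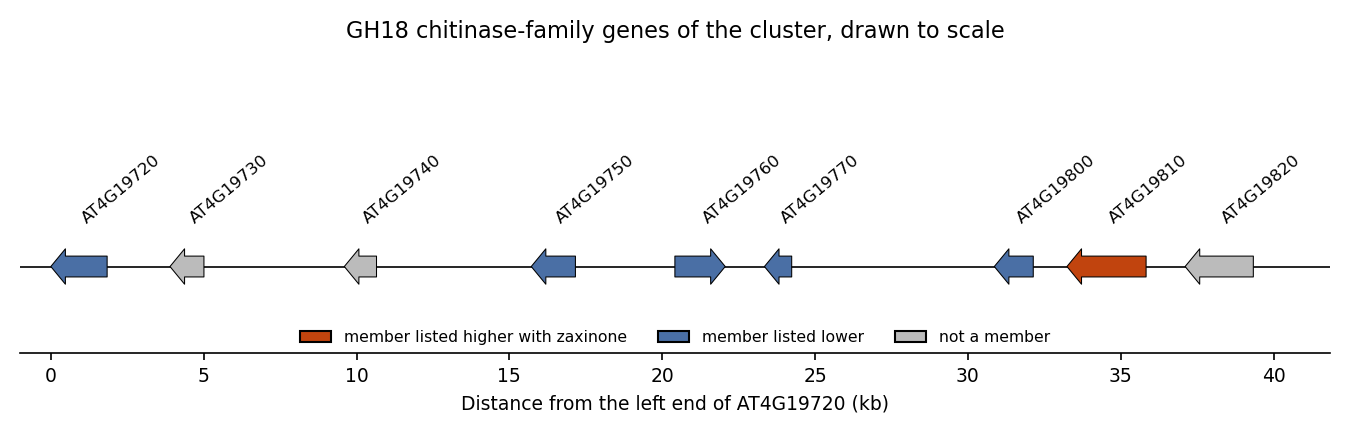
Map of the 9 annotated GH18 genes of the cluster, drawn to scale along the distance in kb from the left end of AT4G19720, with arrows in the direction of transcription. Orange marks the member listed higher with zaxinone (AT4G19810), blue the 5 members listed lower and grey the 3 genes that are not members.

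A 60-base stretch of the coding strand that aligned without gaps in all 6 is printed 5′ to 3′. It was chosen as the window with the most positions identical in all 6, so it overstates how alike the members are. Over whole coding sequences the other members were identical to AT4G19810 at 70.9 to 72.9% of aligned bases. Capitals mark bases that differ from AT4G19810, and 44 of the 60 positions were the same in all 6 genes.
AT4G19720: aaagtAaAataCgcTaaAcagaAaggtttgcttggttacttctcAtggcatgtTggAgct
AT4G19750: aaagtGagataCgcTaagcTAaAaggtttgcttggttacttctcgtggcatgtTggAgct
AT4G19760: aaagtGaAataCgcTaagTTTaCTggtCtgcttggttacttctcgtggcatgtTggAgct
AT4G19770: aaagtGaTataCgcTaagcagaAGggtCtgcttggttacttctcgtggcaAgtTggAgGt
AT4G19800: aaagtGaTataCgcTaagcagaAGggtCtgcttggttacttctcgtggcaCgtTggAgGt
AT4G19810: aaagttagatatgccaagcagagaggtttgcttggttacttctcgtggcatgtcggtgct
The window began at coding base 949 of AT4G19720, 964 of AT4G19750, 994 of AT4G19760, 670 of AT4G19770, 931 of AT4G19800 and 997 of AT4G19810. AT4G19760 differed from AT4G19810 at 12 positions, the most of the 5, and AT4G19750 at 8, the fewest.

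Within the cluster, 2 pairs of members were much closer to each other than to the rest. AT4G19750 and AT4G19760 were identical at 92.1% of 1080 aligned coding bases, and AT4G19770 and AT4G19800 at 86.9% of 786. The other 13 member pairs were identical at 68.3 to 72.9% of aligned bases. The longest run shared by AT4G19750 and AT4G19760, of 134 bases, is shown because sequenced fragments inside it cannot be assigned to 1 of the pair.
AT4G19750 and AT4G19760 shared run: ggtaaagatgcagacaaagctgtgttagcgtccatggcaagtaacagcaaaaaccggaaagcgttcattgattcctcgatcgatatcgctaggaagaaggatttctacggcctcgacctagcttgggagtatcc
Exact copies elsewhere in the genome were found for 10.2% of the 50-base windows in AT4G19750 exons and for 10.3% of those in AT4G19760 exons. At 100 bases these shares were 3.93% and 3.96%, and at 150 bases no exon window of either gene had an exact copy. In AT4G19770 and AT4G19800, 2.26% and 1.46% of 50-base windows had one, and in AT4G19720 and AT4G19810 none had. The sources used here give neither the read length nor how reads with several matches were counted, so the separate levels of AT4G19750 and AT4G19760 are less certain than their common direction.

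The 250 bases before the annotated start are shown for 3 lowered members and for AT4G19810, which moved the other way in the mutants. The windows of AT4G19720 and AT4G19770, which were also lowered, are not shown. AT4G19750, AT4G19760 and AT4G19800 have no annotated UTR, so their windows end at the start codon, whereas that of AT4G19810 ends at its transcript start. Capitals mark TATAAATA, TTGAC or ACGTG on either strand.
AT4G19750, chr4:10747128-10747377, minus strand: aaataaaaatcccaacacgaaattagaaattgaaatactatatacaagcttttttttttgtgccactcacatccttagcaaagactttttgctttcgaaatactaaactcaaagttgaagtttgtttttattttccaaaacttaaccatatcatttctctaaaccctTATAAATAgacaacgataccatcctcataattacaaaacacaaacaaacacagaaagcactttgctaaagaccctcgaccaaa
AT4G19760, chr4:10750131-10750380, plus strand: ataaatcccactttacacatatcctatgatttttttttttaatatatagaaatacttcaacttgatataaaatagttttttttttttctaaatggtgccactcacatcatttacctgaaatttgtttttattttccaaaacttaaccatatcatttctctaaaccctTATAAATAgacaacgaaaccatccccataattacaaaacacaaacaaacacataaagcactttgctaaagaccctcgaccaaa
AT4G19800, chr4:10762105-10762354, minus strand: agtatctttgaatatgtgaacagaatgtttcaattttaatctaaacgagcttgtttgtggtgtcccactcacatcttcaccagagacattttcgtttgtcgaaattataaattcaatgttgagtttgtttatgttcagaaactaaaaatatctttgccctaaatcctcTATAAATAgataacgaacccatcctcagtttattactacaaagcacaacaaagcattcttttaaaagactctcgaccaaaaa
AT4G19810, chr4:10765796-10766045, minus strand: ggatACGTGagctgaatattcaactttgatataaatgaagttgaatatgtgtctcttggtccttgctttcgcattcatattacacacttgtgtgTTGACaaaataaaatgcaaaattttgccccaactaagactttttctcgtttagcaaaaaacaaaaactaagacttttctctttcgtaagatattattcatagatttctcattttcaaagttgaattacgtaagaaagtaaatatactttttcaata
The windows of AT4G19750 and AT4G19760 were identical at 85.2% of 230 aligned bases and shared a run of 63 bases around TATAAATA. That of AT4G19800 was identical to AT4G19760 at 79.8% and to AT4G19750 at 76.8% of aligned bases, against 65.9% with AT4G19810. That of AT4G19720, also lowered, was identical at 64.7% to AT4G19810 and at 58.4, 55.7 and 62.4% to AT4G19750, AT4G19760 and AT4G19800. That of AT4G19770, which resembled coding sequence, was still identical at 53.5 to 59.7% to the other members. Values in that range therefore need not mark related windows. AT4G19740, listed for no genotype, shared 74.5% with AT4G19750 and 74.4% with AT4G19800. Such likeness was not confined to listed genes, and any link to the zaxinone change was not tested. TATAAATA stood 83 bases before the start of AT4G19750 and of AT4G19760 and 82 before that of AT4G19800. It was in 4 of 6 member windows and in 9.81% of 27438 windows before RefSeq genes. The 4 include AT4G19720, where it was on the opposite strand 12 bases before the start. AT4G19730, not a member, also had it. This motif was added after the sequences had been seen.

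Another 3 short motifs were also searched on both strands in these 250-base windows. TTGAC, the core of the W box bound by WRKY factors, was in 3 of 6 member windows and in 44.9% of all windows. TGACG, a core bound by TGA factors, was in 1 of 6 and in 18.6% of all, and 1 of its 2 matches before AT4G19770 overlapped a TTGAC match. ACGTG, the core of abscisic acid response elements, was in 1 of 6, before AT4G19810, and in 22.9% of all. The window before AT4G19770 aligned over 237 bases with the coding sequence of AT4G19800, from its coding base 1 to 240, with 80.6% identity, so it resembled coding sequence and not the other windows.

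The libraries held 42.8 to 101.9 M fragments, and the genes listed in the tables took 4.63 to 13.3% of them. All listed genes were past an adjusted p of 0.05 and a log2 fold change of 1 in size, and levels of unlisted genes were not analysed here. D14 and MAX2 were in no table. KAI2 was in the kai2 table only, with 7.21, 6.64, 5.40 and 7.15 FPKM in kai2 zaxinone roots and 2.39, 2.06, 1.77 and 2.05 FPKM in kai2 mock roots, so these values do not check the mutant labels. Of 12 shoot genes that a root sample could hold by admixture, 10 were in no table, RBCS2B was in the d14 and kai2 tables and CAB3 in the kai2 table. Their summed level was 0 to 0.0197 FPKM in d14 zaxinone and 0.0435 to 0.340 FPKM in d14 mock roots, and 0.0119 to 0.172 FPKM in kai2 zaxinone and 0.0623 to 1.94 FPKM in kai2 mock roots. RBCS2B was at 0 in all 4 kai2 zaxinone libraries.

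With zaxinone, 5 of the 6 members were listed lower in the authors' deposited table of every genotype, and AT4G19810 was listed higher in d14, kai2 and max2. The shares of all tested genes listed lower were 3.51% in d14, 3.28% in kai2, 2.60% in max2 and 3.59% in Col-0. The shares listed higher were 5.94% in d14, 4.16% in kai2, 3.57% in max2 and 3.74% in Col-0. Since the tables chose the members, nothing is read from these counts. Levels are given in FPKM, fragments scaled by exon length and by library total, and a fold change is zaxinone over mock on the log2 scale, from edgeR on the deposited counts, with its standard error. Scaling by TMM or DESeq2 size factors over the listed genes lowered the members' values in the 3 mutants by about the shift of the median listed gene, which was −0.87 or −1.02 in d14, −0.61 or −0.76 in kai2 and −0.64 or −0.83 in max2, and no member changed direction. In bulk roots, fewer cells of a type and less RNA per cell cannot be told apart.

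AT4G19750 and AT4G19760, the near-identical pair, had the highest mock levels of the strongly lowered members. AT4G19750 had 0.0863, 0.467, 0.304 and 0.176 FPKM in d14 zaxinone roots, against 33.7, 33.8, 43.8 and 45.6 FPKM in d14 mock roots. In kai2 it had 0.320, 0.206, 0.750 and 0.139 FPKM with zaxinone and 21.2, 12.4, 18.0 and 39.9 FPKM in mock. All zaxinone libraries of d14 and kai2 were thus below 1 FPKM and all mock libraries far above it. In max2 it had 0.949, 1.04, 1.12 and 3.21 FPKM with zaxinone and 22.9, 86.0, 45.5 and 104.1 FPKM in mock. In Col-0 it had 0.444, 0.515, 0.0361 and 0.129 FPKM with zaxinone and 11.6, 22.7, 24.0 and 24.0 FPKM in mock. Groups did not overlap in any genotype, and of the mock groups that of max2 was the most uneven. The log2 fold change was −7.25 ± 0.37 in d14, −6.06 ± 0.53 in kai2, −5.36 ± 0.55 in max2 and −6.19 ± 0.57 in Col-0 (SE, n = 4 each). It was −6.65 in kai2 without zaxinone replicate 3 and −5.96 in max2 without zaxinone replicate 4, the highest libraries of their groups.

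AT4G19760, on the opposite strand, had 0.240, 0.407, 0.199 and 0.211 FPKM in d14 zaxinone roots, against 28.6, 24.2, 38.1 and 35.1 FPKM in d14 mock roots. In kai2 it had 0.118, 0.234, 0.252 and 0.152 FPKM with zaxinone and 15.9, 7.76, 7.87 and 17.7 FPKM in mock. No group overlapped its partner, and d14 mock roots held more of this transcript than any kai2 library. In max2 it had 0.440, 0.418, 0.453 and 0.908 FPKM with zaxinone and 16.3, 37.9, 22.6 and 35.5 FPKM in mock. In Col-0 it had 0.0775, 0.158, 0 and 0.114 FPKM with zaxinone and 5.32, 10.3, 10.5 and 12.4 FPKM in mock. The max2 and Col-0 groups were also fully apart, and Col-0 had the lowest mock levels. Its log2 fold change was −6.89 ± 0.27 in d14, −6.04 ± 0.40 in kai2, −5.66 ± 0.36 in max2 and −6.82 ± 0.55 in Col-0 (SE, n = 4 each).

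AT4G19770, the shortest member, was a low-level gene. It had 0.0194, 0.257, 0 and 0.132 FPKM in d14 zaxinone roots, against 2.27, 3.39, 2.57 and 3.25 FPKM in d14 mock roots. In kai2 it had 0.0720, 0.128, 0.0289 and 0.0418 FPKM with zaxinone and 1.65, 1.86, 1.88 and 2.06 FPKM in mock. The kai2 mock libraries were close to each other, and d14 mock libraries all lay above them. In max2 it had 0, 0.0250, 0.0445 and 0 FPKM with zaxinone and 1.67, 1.23, 1.32 and 1.43 FPKM in mock. In Col-0 it had 0.0533, 0.0290, 0.0365 and 0 FPKM with zaxinone and 1.27, 2.64, 1.65 and 1.67 FPKM in mock. Groups did not overlap in any of the 4 genotypes, although zaxinone libraries held only 0 to 11 counts each. The log2 fold change was −4.83 ± 0.59 in d14, −4.67 ± 0.39 in kai2 and −5.78 ± 0.51 in Col-0 (SE, n = 4 each). The value in d14 was −5.89 without d14 zaxinone replicate 2, which held 11 of the 17 zaxinone counts. In max2 the zaxinone libraries had 3 counts in all and the mock libraries 251, and mock over zaxinone was 80.1-fold with an exact 95% interval from 27.1 to 391 that covers counting error only.

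AT4G19800, the closest relative of AT4G19770, had 0 counts in all 16 zaxinone libraries. Its mock roots had 0.736, 1.12, 1.42 and 0.713 FPKM in d14 and 1.91, 1.40, 0.674 and 2.21 FPKM in kai2. In max2 mock roots it had 0.259, 0, 0.0524 and 0.156 FPKM, from 18, 0, 3 and 12 counts, and in Col-0 mock roots 0.439, 0.864, 1.31 and 1.06 FPKM. It was therefore detected in every mock library of d14, kai2 and Col-0, while max2 mock replicate 2 equalled the zaxinone libraries at 0. Set against a floor of 3 counts per library, zaxinone roots were at least 21.4-fold lower than mock in d14, 34.3-fold in kai2, 2.44-fold in max2 and 31.6-fold in Col-0. The bound in max2 was 1.45-fold without max2 mock replicate 1, and 2 of the 4 max2 mock libraries were at or below 3 counts. These bounds cover counting error only.

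AT4G19720, at the other end of the cluster from AT4G19810, kept more of its level with zaxinone than the other lowered members. It had 5.68, 7.10, 6.49 and 5.31 FPKM in d14 zaxinone roots, against 16.7, 17.2, 22.6 and 20.9 FPKM in d14 mock roots. In kai2 it had 4.63, 4.38, 4.48 and 4.79 FPKM with zaxinone and 14.4, 14.1, 11.7 and 17.9 FPKM in mock. The kai2 zaxinone libraries formed the lowest group of this gene and had the smallest SD. In max2 it had 10.99, 6.26, 10.8 and 12.6 FPKM with zaxinone and 17.8, 36.0, 29.1 and 42.2 FPKM in mock. In Col-0 it had 9.62, 7.11, 5.67 and 6.84 FPKM with zaxinone and 17.3, 17.4, 16.6 and 17.3 FPKM in mock. Zaxinone and mock libraries did not overlap within any genotype. The log2 fold change was −1.65 ± 0.16 in d14, −1.66 ± 0.16 in kai2, −1.62 ± 0.27 in max2 and −1.24 ± 0.19 in Col-0 (SE, n = 4 each), the value in Col-0 lying nearest to the tables' threshold of 1. With TMM or DESeq2 size factors over the listed genes it was −2.51 or −2.66 in d14, −2.26 or −2.42 in kai2, −2.23 or −2.45 in max2 and −1.22 or −1.40 in Col-0.

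AT4G19810, the gene of ChiC, went the other way in the mutants. It had 6.51, 7.94, 5.66 and 6.26 FPKM in d14 zaxinone roots, against 2.11, 2.76, 1.68 and 1.97 FPKM in d14 mock roots. In kai2 it had 9.17, 9.74, 6.65 and 8.37 FPKM with zaxinone and 4.95, 2.81, 2.20 and 3.03 FPKM in mock. In max2 it had 5.24, 7.16, 7.14 and 6.49 FPKM with zaxinone and 2.96, 2.96, 3.08 and 2.70 FPKM in mock. All zaxinone libraries of the 3 mutants were above all their mock libraries, and kai2 mock replicate 1 was the highest mock library. That library also had the highest summed level of the 2 listed shoot genes, 1.94 FPKM, and the part of this in its AT4G19810 level was not tested. The log2 fold change was 1.64 ± 0.19 in d14, 1.39 ± 0.24 in kai2 and 1.15 ± 0.17 in max2 (SE, n = 4 each). When the libraries were scaled by TMM or DESeq2 size factors over the listed genes, it was 0.78 or 0.62 in d14, 0.81 or 0.66 in kai2 and 0.51 or 0.32 in max2, still higher with zaxinone. The Col-0 table does not list AT4G19810, so its level in Col-0 was not analysed here and no difference from the mutants can be given.

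**Figure D2:**
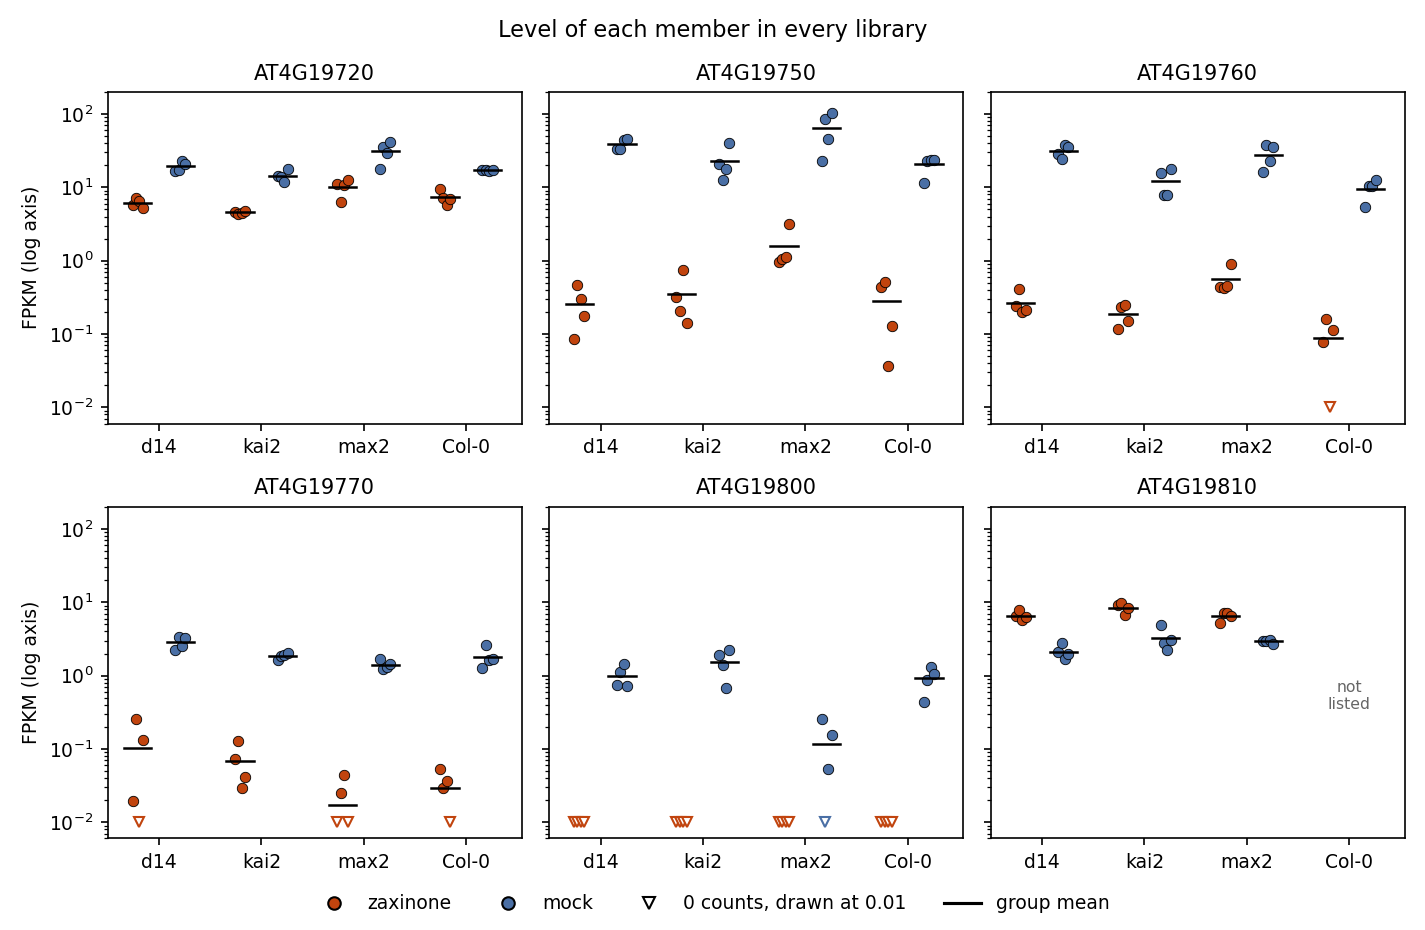
FPKM of each member (log axis) in every library, with zaxinone libraries in orange left of mock libraries in blue for d14, kai2, max2 and Col-0, bars at group means and open triangles for libraries with 0 counts drawn at 0.01. AT4G19750 and AT4G19760 lie far apart between treatments, AT4G19720 less so, and AT4G19810 is above mock with zaxinone in the 3 mutants.

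**Figure D3:**
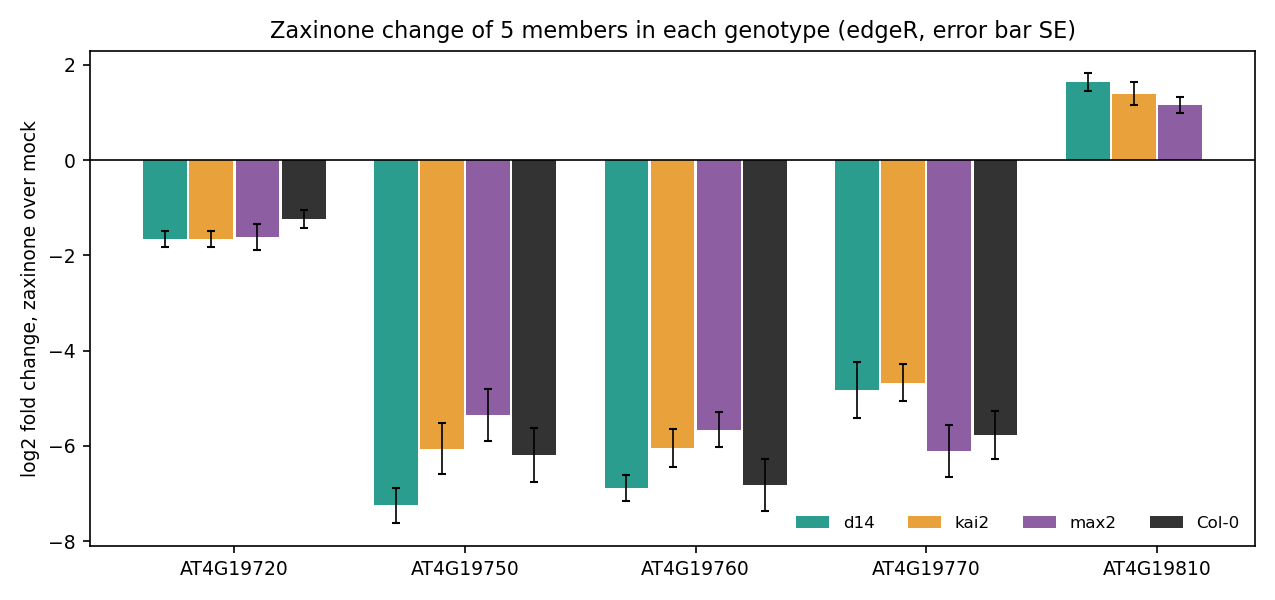
Log2 fold change of zaxinone over mock from edgeR, with bars for d14, kai2, max2 and Col-0 and error bars of 1 SE (n = 4 libraries per group). AT4G19800 is left out because its zaxinone libraries had 0 counts, and AT4G19810 has no Col-0 bar because the Col-0 table does not list it, and the AT4G19770 bar in max2 rests on 3 zaxinone counts.

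The make-up of the cluster's transcripts differed between treatments. The summed level of the 5 lowered members was 6.77 ± 1.10 FPKM in d14 zaxinone against 94.0 ± 15.2 FPKM in d14 mock roots, and 5.18 ± 0.236 against 53.1 ± 19.4 FPKM in kai2 (SD, n = 4 each). In max2 it was 12.3 ± 3.68 FPKM with zaxinone and 126 ± 57.1 FPKM in mock, and in Col-0 7.71 ± 1.86 FPKM with zaxinone and 50.1 ± 9.47 FPKM in mock (SD, n = 4 each). AT4G19720 made up 91.1% of this sum with zaxinone and 20.7% in mock in d14, 88.3% and 28.8% in kai2, 83.0% and 26.3% in max2, and 95.2% and 35.5% in Col-0. In mock roots AT4G19750 had the largest mean share in each genotype, with 41.8% in d14, 41.6% in kai2, 48.8% in max2 and 40.3% in Col-0. These shares follow from the fold changes that chose the members and are descriptions.

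The order of levels over the groups was led by mock roots of max2 and d14. AT4G19720 and AT4G19750 had their highest means in max2 mock roots, 31.3 ± 10.5 and 64.7 ± 37.1 FPKM, while AT4G19760 and AT4G19770 had theirs in d14 mock roots, 31.5 ± 6.30 and 2.87 ± 0.539 FPKM (SD, n = 4). AT4G19800 was highest in kai2 mock roots, at 1.55 ± 0.674 FPKM, and AT4G19810 in kai2 zaxinone roots, at 8.48 ± 1.34 FPKM (SD, n = 4). For AT4G19720, AT4G19750 and AT4G19760 the mock groups that neighboured each other in this order overlapped in every case. For AT4G19770 the d14 mock group overlapped that of Col-0, whose replicate 2 had 2.64 FPKM, and not that of kai2 or max2. For AT4G19800 the max2 mock group stood clear below the other 3 mock groups.

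The rule did not use mock roots of mutants against mock roots of Col-0, so this comparison was tested. Levels were set across tables that the authors had normalized separately, so counts were scaled by library totals and tested with edgeR's quasi-likelihood test over all genes listed in both tables, with Benjamini-Hochberg adjustment. Genes had to respond to zaxinone to be listed. The members tested were all listed lower, which high mock levels favour, whereas the other genes tested include genes listed higher. The shares and medians over all genes tested are therefore not a matched comparison for the members. The genotypes' libraries may also differ in handling, which the labels do not record.

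In max2 mock roots, 3 members were higher than in Col-0 mock roots and 1 was lower, 4 of the 5 that could be tested, against 27.4% of all 1049 genes tested (19.4% higher and 7.91% lower). AT4G19720 averaged 31.3 ± 10.5 FPKM in max2 and 17.2 ± 0.407 FPKM in Col-0 (SD, n = 4 each), a log2 difference of 0.87 ± 0.22 (SE) with an edgeR adjusted p of 0.0160. All 4 max2 mock libraries were above the 4 of Col-0, the lowest, max2 replicate 1, by a small margin. AT4G19750 averaged 64.7 ± 37.1 FPKM in max2 and 20.6 ± 5.99 FPKM in Col-0 (SD, n = 4 each), a log2 difference of 1.65 ± 0.41 (SE) with an edgeR adjusted p of 0.0142. Here max2 replicate 1 lay within the Col-0 range. AT4G19760 averaged 28.1 ± 10.3 FPKM in max2 and 9.63 ± 3.03 FPKM in Col-0 (SD, n = 4 each), a log2 difference of 1.54 ± 0.30 (SE) with an edgeR adjusted p of 0.00489. Reads that fit both AT4G19750 and AT4G19760 could enter both levels, so the calls of this pair may not be separate.

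AT4G19800 was the member that was lower in max2 mock roots, at 0.117 ± 0.115 FPKM in max2 and 0.918 ± 0.367 FPKM in Col-0 (SD, n = 4 each). The log2 difference was −2.89 ± 0.64 (SE) with an edgeR adjusted p of 0.00835, and the groups did not overlap. Without max2 mock replicate 1 the difference was −3.59 (edgeR adjusted p 0.00288). Its close relative AT4G19770 had 1.41 ± 0.190 FPKM in max2 and 1.81 ± 0.582 FPKM in Col-0 (SD, n = 4 each), a log2 difference of −0.36 with a 95% interval from −0.92 to 0.21 and an edgeR adjusted p of 0.325. Within max2 mock roots, replicate 1 had the lowest AT4G19720, AT4G19750 and AT4G19760 levels and the highest AT4G19770 and AT4G19800 levels of the 4 libraries. Over all genes tested the median log2 difference of max2 over Col-0 mock was 0.22, against 0.87 for the middle member.

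In d14 mock roots, 2 of 5 members were higher than in Col-0 mock roots, against 16.4% of all 1290 genes tested that were higher and 13.4% that were lower (29.8% in all). They were the near-identical pair, and reads that fit both genes could enter both levels, so these calls may not be separate. AT4G19750 averaged 39.2 ± 6.37 FPKM in d14 and 20.6 ± 5.99 FPKM in Col-0 (SD, n = 4 each), a log2 difference of 0.93 ± 0.22 (SE) with an edgeR adjusted p of 0.00982. AT4G19760 averaged 31.5 ± 6.30 FPKM in d14 and 9.63 ± 3.03 FPKM in Col-0 (SD, n = 4 each), a log2 difference of 1.71 ± 0.24 (SE) with an edgeR adjusted p of 0.00100. All 4 d14 libraries were above all 4 Col-0 libraries for both genes. AT4G19770 averaged 2.87 ± 0.539 FPKM in d14 and 1.81 ± 0.582 FPKM in Col-0 (SD, n = 4 each), a log2 difference of 0.66 (95% interval 0.12 to 1.21) that missed the threshold with an edgeR adjusted p of 0.0623. It passed with DESeq2 (adjusted p 0.0341), with the replicate number as a block in edgeR (adjusted p 0.0197) and in edgeR without Col-0 mock replicate 2 (adjusted p 0.0144), which made it 3 of 5 members. The log2 differences of AT4G19720 and AT4G19800 were 0.17 (95% interval −0.10 to 0.45) and 0.12 (−0.64 to 0.88). The median over all genes tested was 0.07, against 0.66 for the middle member.

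In kai2 mock roots none of the 5 members passed the threshold against Col-0 mock roots, where 10.8% of all 1138 genes did (8.79% higher and 2.02% lower). The log2 differences, kai2 over Col-0, ran from −0.24 for AT4G19720 (95% interval −0.56 to 0.08) to 0.75 for AT4G19800 (−0.12 to 1.63). AT4G19750 differed by 0.15 (−0.56 to 0.86), AT4G19760 by 0.36 (−0.33 to 1.05) and AT4G19770 by 0.04 (−0.55 to 0.63). None of the 5 had an unadjusted p under 0.05 in edgeR, as 298 of the 1138 genes did, and DESeq2 and limma-voom called none of the 5 either. The intervals of all 5 genes reach past 0.5 on the log2 scale in 1 direction or both.

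**Figure D4:**
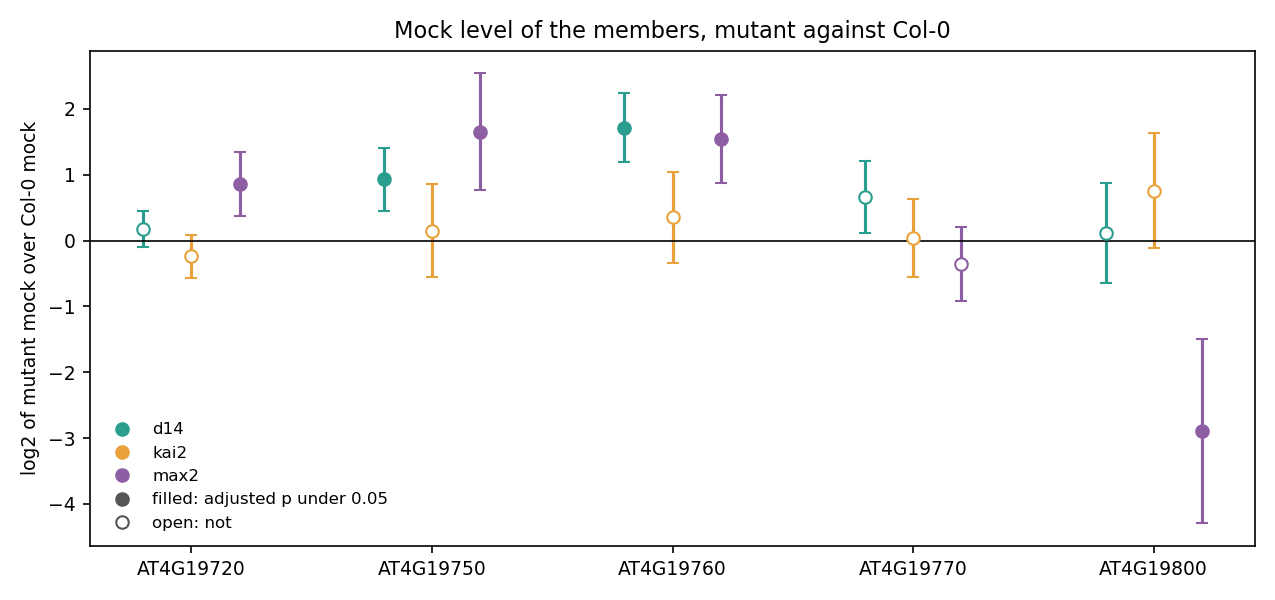
Log2 of mutant over Col-0 mock level for 5 members with 95% intervals from edgeR (n = 4 libraries per group), for d14, kai2 and max2, filled where the adjusted p was under 0.05. The pair AT4G19750 and AT4G19760 is above 0 in d14 and max2, and AT4G19800 is below 0 in max2.

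The ratio of AT4G19750 to AT4G19760, compared after their values had been seen, was 1.26 ± 0.116 in d14 mock roots, 1.87 ± 0.479 in kai2, 2.16 ± 0.631 in max2 and 2.15 ± 0.155 in Col-0 (SD, n = 4 each). An exact 2-sided permutation test against Col-0 gave p = 0.0286 in d14, the smallest that 4 against 4 libraries allow, p = 0.371 in kai2 and p = 0.83 in max2. Adjusted over the 3 tests, the value for d14 was 0.0857 by exact permutation and did not pass 0.05. With the p-values of kai2 and max2 as they were, no d14 ratios could have passed, since the unadjusted p was already the smallest possible. All 4 d14 ratios lay below all 4 of Col-0. Reads that fit both genes could move this ratio, and their part was not tested.

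The size of the zaxinone change in a mutant minus that in Col-0 was tested as the genotype by treatment term of edgeR over the genes listed in both tables. None of the 4 members that could be tested passed an adjusted p of 0.05 in any mutant, against 7.91% of 1290 genes in d14, 0% of 1138 in kai2 and 2.57% of 1049 in max2. No member had an unadjusted p under 0.05 in edgeR, whereas 98 of the 1138 genes did in kai2, and DESeq2 and limma-voom called no member either. For kai2 as a whole DESeq2 called 18 genes and limma-voom 2. This term is the difference of the same fold changes that listed the genes, and all genes tested had to be listed in both genotypes. That selection works against finding a difference, so the counts of calls do not show that the genotypes responded alike. The term could not be estimated for AT4G19800, with zaxinone libraries at 0, nor for AT4G19810, which the Col-0 table does not list.

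For AT4G19720 the difference of effects was −0.42 in d14 (95% interval −0.92 to 0.08), −0.43 in kai2 (−0.93 to 0.07) and −0.39 in max2 (−1.09 to 0.31). All 3 mutants share the same Col-0 libraries in this comparison. For AT4G19750 it was −1.07 in d14 (−2.52 to 0.39), 0.12 in kai2 (−1.48 to 1.73) and 0.83 in max2 (−0.75 to 2.41). For AT4G19760 it was −0.06 in d14 (−1.93 to 1.80), 0.77 in kai2 (−0.71 to 2.26) and 1.16 in max2 (−0.20 to 2.52). The width in d14 is unreliable, since the SE was 0.89 there and 0.36 without d14 zaxinone replicate 4. AT4G19770 gave 0.93 in d14 (−0.91 to 2.77), 1.07 in kai2 (−0.37 to 2.51) and −0.39 in max2 (−2.18 to 1.40). The intervals of the 3 strongly lowered genes were wider than those of AT4G19720 in each mutant.

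Of the neighbours that are not members, AT4G19820 was listed lower in the authors' deposited table of all 4 genotypes. It had 0.0494 ± 0.0317 FPKM in d14 zaxinone and 0.212 ± 0.171 FPKM in d14 mock roots, and 0.00567 ± 0.00696 FPKM in kai2 zaxinone and 0.216 ± 0.0249 FPKM in kai2 mock roots (SD, n = 4 each). In max2 it had 0.0193 ± 0.0162 FPKM with zaxinone and 0.192 ± 0.0651 FPKM in mock, and in Col-0 0.104 ± 0.0465 FPKM with zaxinone and 0.371 ± 0.131 FPKM in mock (SD, n = 4 each). Its zaxinone change in kai2 minus that in Col-0 was −3.06 (95% interval −4.77 to −1.35), with an edgeR adjusted p of 0.121 that missed the threshold, and it rests on 3 counts in kai2 zaxinone roots. It lies just beyond AT4G19810, with which it shared 81.1% of aligned coding bases. AT4G19730 was listed lower in the authors' deposited table of max2 only, with 0 counts in all 4 zaxinone libraries and 0, 2, 3 and 24 counts in the mock libraries. AT4G19740 was in no table.

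Other chitinases moved in both directions. Of 15 genes of the GH18 class III and GH19 families, 4 were listed higher and 2 lower in d14, 3 higher and 3 lower in kai2, 4 higher and 1 lower in max2, and 1 higher and 2 lower in Col-0, and 8 were in no table. CHIA, the class III chitinase, was listed higher in the authors' deposited table of all 4 genotypes, with 110 ± 19.3 FPKM in d14 zaxinone and 13.0 ± 1.17 FPKM in d14 mock roots, and 67.2 ± 7.21 and 12.3 ± 0.649 FPKM in those of Col-0 (SD, n = 4 each). HCHIB, a basic chitinase, had 415 ± 54.9 FPKM in d14 zaxinone and 176 ± 36.1 FPKM in d14 mock roots, and was listed higher in d14 and max2. AT2G43590 and AT2G43580 were listed higher in the 3 mutants. AT4G01700 was listed lower in all 4 tables, with 15.0 ± 1.62 FPKM in kai2 zaxinone and 34.9 ± 5.88 FPKM in kai2 mock roots. AT1G56680 was listed lower in d14 and kai2, and AT2G43620 in kai2 and Col-0.

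Genes of chitin perception and early signalling were mostly absent from the tables, with 10 of 13 in none. WRKY53, a transcription factor of defence and senescence, was listed lower in the authors' deposited table of each genotype, with 8.05 ± 0.359 FPKM in max2 zaxinone and 17.8 ± 1.25 FPKM in max2 mock roots (SD, n = 4 each). WRKY29 was listed lower in Col-0 only, and LYK5, a LysM receptor kinase for chitin, was listed higher in d14 only. Of 8 other pathogenesis-related genes, OSM34 was listed higher in d14 and max2 and PR5 in d14, where it had 0 to 0.412 FPKM with zaxinone and 0 to 0.0349 FPKM in mock. Of 13 jasmonate genes, 12 were in no table and VSP1 was listed higher in kai2. Whether a gene's listing in 1 genotype differs from its absence in another was not tested.

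The genes most like the 5 lowered members were looked for among the 822 other genes listed in all 4 tables. Likeness was the root mean square difference, over the 32 libraries, between a gene's centred log2(CPM + 0.5) and the mean profile of the members. The 5 nearest were HR1 (AT3G50450), with 0.26, AT3G02430 with 0.31, AT5G28630 with 0.33, AT5G05420 with 0.34 and AT1G33900 with 0.34. The members themselves differed from their own mean by 0.62 for AT4G19770 to 1.19 for AT4G19750, so their mean profile is nearer to these genes than to any single member. HR1, a homolog of the resistance protein RPW8, had 0.296 ± 0.144 FPKM in d14 zaxinone and 7.79 ± 0.944 FPKM in d14 mock roots, and 0.230 ± 0.0837 FPKM in kai2 zaxinone and 4.92 ± 0.559 FPKM in kai2 mock roots (SD, n = 4 each). Mock means in Col-0, d14 and max2 were 3.92, 7.79 and 6.15 FPKM for HR1 and 8.79, 12.97 and 12.56 FPKM for AT3G02430. In that order AT5G28630 had 232, 310 and 346 FPKM and AT5G05420 had 36.6, 48.2 and 38.7 FPKM. AT1G33900 had 25.9, 37.2 and 44.5 FPKM. Higher mock means in d14 and max2 than in Col-0 were thus not confined to the cluster, although AT5G05420 differed little in max2. Likeness over these libraries chose the 5 genes, so their mock levels are a description. All libraries share the treatment contrast that listed these genes.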

How the data were processed

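Polyadenylated RNA of 32 root libraries was sequenced as paired ends, per the labels' protocols, and groups were taken from the sample titles. Tools named in the submitters' processing notes are HISAT2 and StringTie. Build, annotation and counting tool are not given in the sources used. Per the file headers, each genotype's deposited table gives raw counts, the authors' normalized counts (a signal: the count divided by 1 factor per library, 0.788 to 1.29), FPKM, the authors' log2 fold change and its p-value, raw and adjusted. The deposited p-value ranks implied 24718, 24625, 24534 and 25041 tested genes in d14, kai2, max2 and Col-0. The deposited normalized column of Col-0 zaxinone replicate 2 held another value, 1 constant, so its factor came from the authors' group mean. The authors' model is not stated. The gene lengths behind the authors' FPKM equalled RefSeq exon lengths of TAIR10.1, so its coordinates and sequences were used.

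Counts were fitted with edgeR 4.0.16 in R 4.3.3, with the authors' factors for the zaxinone change and the effect difference, and library totals, recovered from counts and FPKM, for mock levels. The fit was tested on simulated data. Alternatives used DESeq2 1.42.0, limma-voom 3.58.1, TMM, a filter of 10 counts in 4 libraries, a replicate block and each library left out. Coding sequences were aligned with MAFFT 7.526. Intervals are at 95%. The SE of an edgeR value is its size divided by the square root of its F statistic, and edgeR intervals use this SE. Such an SE is unstable for values near 0. The listed genes were selected on these libraries, so tests ran over genes listed in both tables of a comparison. Named genes were every member, every listed gene of the lists and the 5 nearest by likeness. The members and lists were chosen with earlier results of these data known. Deviations from the group mean in same-numbered zaxinone and mock libraries of a genotype correlated between −0.164 and 0.174. Numbers therefore do not pair libraries within a genotype. Whether they pair mock libraries of different genotypes was not tested. Replicates differed by 16.8 to 287 in chi-square per degree of freedom, so none was a duplicate.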

Additional observations from a re-analysis of the deposited data

Results flagged for a closer look

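A library that stood apart from the other 3 of its group, by Dixon's criterion, was found in 4 of 42 groups of member levels, where chance flags about 1 in 20 groups. AT4G19750 had 3.21 FPKM in max2 zaxinone replicate 4, against 0.949 to 1.12 FPKM in the other 3 libraries. In the same library AT4G19760 had 0.908 FPKM, against 0.418 to 0.453 FPKM. AT4G19750 had 11.6 FPKM in Col-0 mock replicate 1, against 22.7 to 24.0 FPKM in the other 3. AT4G19720 had 16.6 FPKM in Col-0 mock replicate 3, against 17.3 to 17.4 FPKM, a group with little spread.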

How the results depend on the processing

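With a threshold of 2 on the size of the log2 fold change, 4 of the 5 members listed lower in each table remained, without AT4G19720. Of 285 alternative values of the members' zaxinone change, 262 moved by less than the spread between replicates, 23 moved by more and none changed sign. All but 1 of the 23 came with TMM or DESeq2 size factors over listed genes and lay in the mutants. The exception was AT4G19770 in max2, at −7.01 without max2 zaxinone replicate 3. These scalings moved the median listed gene by −0.87 or −1.02 in d14, −0.61 or −0.76 in kai2 and −0.64 or −0.83 in max2. In Col-0 they moved it by 0.01 or −0.17.

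Of 195 alternative values of the mock differences, 185 kept direction and call. AT4G19770 in d14 passed the threshold with DESeq2 (0.66, adjusted p 0.0341), with the replicate number as a block (0.70, adjusted p 0.0197) and without Col-0 mock replicate 2 (0.91, adjusted p 0.0144), so 2 or 3 members were called in d14. The replicate block called 468 of 1290 genes in d14, against 384 without it, and changed no other call of a member. By deviations from group means, only 3 of 16 zaxinone libraries correlated best with the mock library of their own number in the same genotype. Pairing of mock libraries between genotypes, which the block assumes here, was not tested. Uncalled mock differences changed sign for AT4G19770 in kai2 with TMM (−0.061), and on leaving out libraries ranged from −0.12 to 0.34 for AT4G19800 in d14, −0.26 to 0.36 for AT4G19750 in kai2 and −0.10 to 0.28 for AT4G19770 in kai2.

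No member passed the threshold for a difference of effects under any of 22 alternatives per mutant. The sign of AT4G19760 in d14 reversed with limma-voom (0.68), and leaving out libraries gave −0.53 to 0.43 for it, −0.13 to 1.35 for AT4G19770 in d14 and −0.47 to 0.59 for AT4G19750 in kai2. The number of all genes called was 102 in d14 and 33 to 156 without 1 library, 0 in kai2 and up to 9, or 18 with DESeq2, and 27 in max2 and 50 with DESeq2 or 14 with limma-voom. Mock differences called 123 genes in kai2, 195 with DESeq2 and 43 to 113 without 1 library. In d14 the mock calls were 384, and 215 to 404 without 1 library, and in max2 287, and 167 to 309. Low counts in zaxinone roots limit AT4G19770 and AT4G19800. Causes of these shifts were not tested.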
